A study of Mus musculus with 6 samples.

Results

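The genes described here are markers of the liver endothelium, the cells that line hepatic blood vessels. The list held 41 genes, chosen as known markers of these cells, with earlier results of these data known. Of them, 40 had a probe set that was annotated to exactly 1 gene symbol, out of 22087 genes measured in this way. Fcn3 had no such probe set and is not described further. Each gene was represented by its brightest probe set, and only Maf had more than 1. The 40 genes were divided into 17 markers of the sinusoidal endothelium and 23 markers that endothelial cells of most vessels share, called pan-endothelial below.

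Livers came from 3 telmisartan-treated and 3 vehicle-treated STAM mice, a model of non-alcoholic steatohepatitis. All were male C57BL/6J mice that had received 200 μg of streptozotocin, a toxin of insulin-producing cells, 2 days after birth, and then a diet with 60 kcal% fat from 4 weeks of age. Telmisartan, which blocks the angiotensin II receptor, was given by mouth every day (5 mg/kg, in 0.5% carboxymethyl cellulose) between the ages of 6 and 12 weeks, and the other mice received vehicle over the same weeks. RNA of whole liver was measured on 1 Affymetrix Mouse Gene 2.0 ST array per mouse, and mice without streptozotocin and the diet were not analysed here. Across genes, the Pearson correlation between any pair of the 6 arrays was 0.985 to 0.992. Hepatocyte markers averaged between 10.5 and 10.6 in log2 intensity on every array, as whole liver should give. Levels are log2 intensities, differences are telmisartan minus vehicle on that scale, and levels of different probe sets are not compared with each other.

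Sinusoidal endothelial cells form the porous wall between blood and hepatocytes. They lack a continuous basement membrane, clear waste molecules from the blood through scavenger and lectin receptors, and release angiocrine signals, such as Wnt ligands and bone morphogenetic proteins, that act on neighboring hepatocytes. In chronic liver injury these cells can lose their pores and scavenger receptors and come to resemble the endothelium of ordinary capillaries, a state called capillarization, in which Cd34 is a usual marker. In whole-liver RNA, fewer endothelial cells and less RNA per endothelial cell cannot be told apart.

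Part of the endothelial markers were lower in telmisartan-treated livers, among them the hyaluronan receptor Lyve1, the Fc receptor Fcgr2b, endoglin and the endothelial nitric oxide synthase. A gene was called lower or higher where its limma p before adjustment was under 0.05 and its fold reached 1.2, which are the thresholds in the study's methods. Of the 40 genes, 16 were lower and 0 were higher, whereas 3.5% of all genes were lower and 3.09% were higher by the same rule. Because the genes were chosen with earlier results known, such comparisons with all genes, here and below, are a description and not a test. The 16 falls were between 1.28-fold and 1.81-fold, and their limma p before adjustment lay between 0.00439 and 0.0455. None of the 40 genes passed Benjamini-Hochberg adjustment over all genes (lowest limma adjusted p = 0.686), and neither did any other gene measured. The methods' t-test called 4 of the 40 genes lower, which were Lyve1, Fcgr2b, Oit3 and Nos3, and 0 higher, against 1.75% of all genes lower and 1.47% higher.

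Log2 fold changes were below 0 for 36 of the 40 genes, against 50.2% of all genes, and their median was -0.31, against -0.00059 over all genes. The sinusoidal markers had a median of -0.38, with 9 of 17 lower and all 17 below 0. The pan-endothelial markers had a median of -0.23, with 7 of 23 lower and 19 below 0. The difference between these medians was -0.15 and was not tested, and it was -0.23 without vehicle 1 and -0.044 without vehicle 3. The groups did not overlap for 13 of the 40 genes, all of them with the telmisartan arrays below, against 6.35% of all genes below and 6.08% above. With 3 mice per group, an exact permutation test of a single gene cannot give a two-sided p below 0.1, which these 13 genes reached.

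**Figure D1:**
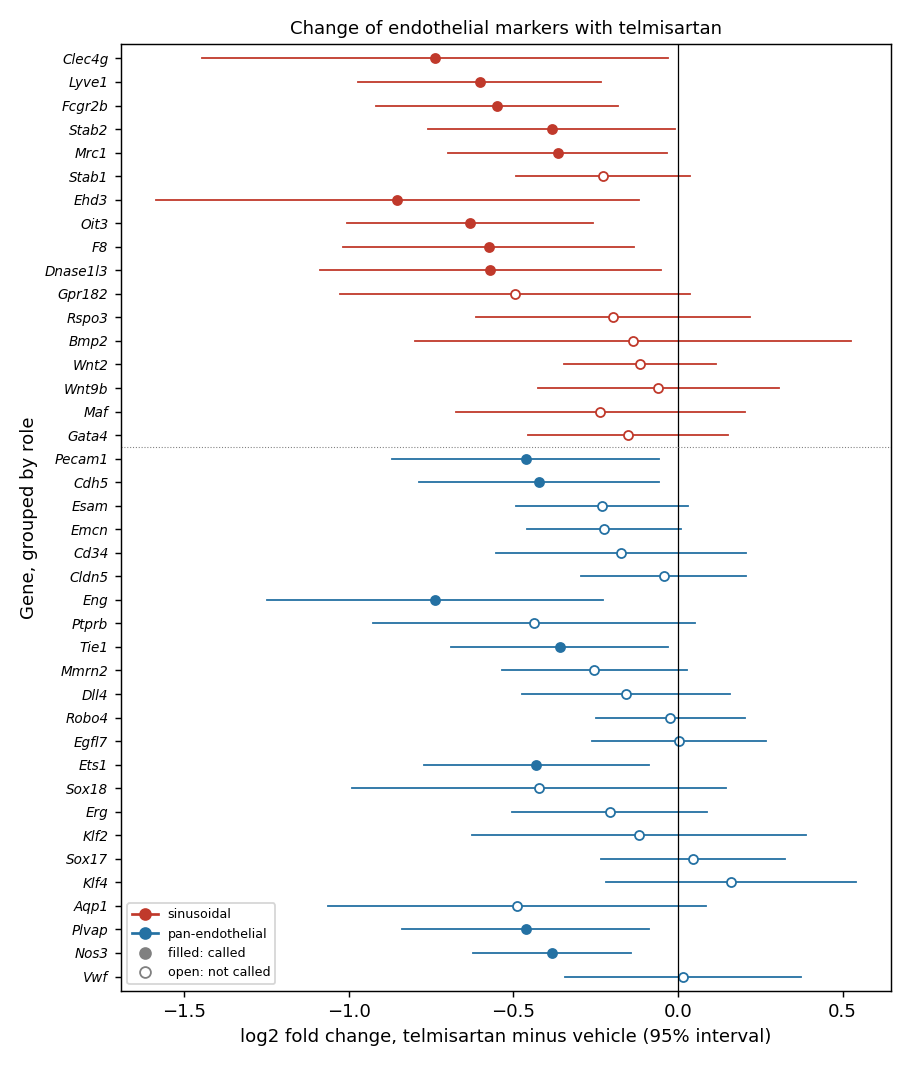
Log2 fold change (telmisartan minus vehicle) of each endothelial marker, with its 95% interval from limma, sinusoidal markers above the dotted line and pan-endothelial markers below it. Filled points mark the 16 genes called lower, and 36 of the 40 points lie left of 0.

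The arrays of 1 group did not lie at the same level. Telmisartan 1 was the highest telmisartan array for 33 of the 40 genes and for each of the 16 lower genes, and it lay below all vehicle arrays for 16 genes. Telmisartan 2 lay below all vehicle arrays for 31 genes and telmisartan 3 for 26. Telmisartan 2 was the lowest of all 6 arrays for 23 genes, 13 of them sinusoidal, while vehicle 3 was the highest of all 6 for 25. On average over the 17 sinusoidal markers, the telmisartan arrays 1, 2 and 3 lay at 5.88, 5.32 and 5.48, against 5.95, 5.86 and 6.08 on the vehicle arrays 1, 2 and 3. The sinusoidal means overlapped, since telmisartan 1 lay slightly above vehicle 2, while telmisartan 2 and 3 lay below all vehicle arrays. The same means over the 23 pan-endothelial markers were 4.66, 4.39 and 4.48 with telmisartan, against 4.66, 4.71 and 4.92 with vehicle. Here telmisartan 1 and vehicle 1 were alike.

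The number of lower genes depended on single arrays. It was 19 of the 40 without telmisartan 1 (4.16% of all genes), 6 without telmisartan 2 (2.64% of all genes) and 7 without telmisartan 3 (2.71% of all genes). It was 14 without vehicle 1 (4.46% of all genes), 14 without vehicle 2 (2.84% of all genes) and 6 without vehicle 3 (2.84% of all genes). Lyve1, Fcgr2b, Oit3, Eng and Nos3 were called lower when any 1 array was left out.

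Receptors for endocytosis make up the first group of sinusoidal markers, and 5 of its 6 genes were lower. Lyve1, a hyaluronan receptor of sinusoidal and lymphatic endothelium, was at 6.61, 6.20 and 6.35 in telmisartan-treated livers, against 6.70, 7.08 and 7.19 in vehicle-treated livers. The groups did not overlap, and the log2 fold change, with its standard error (SE), was -0.60 (SE 0.16, limma p of 0.00518 before adjustment). Fcgr2b, the inhibitory Fc receptor that removes immune complexes, was at 7.02, 6.70 and 6.51 with telmisartan, against 7.22, 7.14 and 7.52 with vehicle. Here too the groups did not overlap, with a log2 fold change of -0.55 (SE 0.16, limma p of 0.00853 before adjustment). Clec4g, a C-type lectin also known as LSECtin, was at 7.22, 5.87 and 6.52 with telmisartan, against 7.54, 6.95 and 7.33 with vehicle. It had the widest spread of this group in telmisartan-treated livers, telmisartan 1 lay above vehicle 2, and its log2 fold change was -0.74 (SE 0.31, limma p of 0.0428 before adjustment). The call of Clec4g was lost without telmisartan 2 or 3 or vehicle 1 or 3 (p up to 0.155).

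Stab2, the scavenger receptor stabilin-2, which clears hyaluronan, was at 6.38, 6.33 and 6.12 with telmisartan, against 6.39, 6.59 and 6.99 with vehicle. Telmisartan 1 and vehicle 1 differed by little, and the log2 fold change of -0.38 (SE 0.16) kept its call only when vehicle 1 was the array left out (p up to 0.157 otherwise). Mrc1, the mannose receptor, was at 6.81, 6.42 and 6.69 with telmisartan, against 6.84, 6.95 and 7.23 with vehicle, a log2 fold change of -0.37 (SE 0.15). Its groups did not overlap, though telmisartan 1 and vehicle 1 were close, and the call was lost without telmisartan 2 or 3 or vehicle 2 or 3 (p up to 0.127). Stab1, the related scavenger receptor stabilin-1, was at 5.40, 5.12 and 5.13 with telmisartan, against 5.46, 5.38 and 5.50 with vehicle. It was not called, with a log2 fold change of -0.23 (SE 0.12, limma p of 0.0819 before adjustment), and it was called without telmisartan 1 (p of 0.0241). Macrophages also make Fcgr2b, Mrc1 and Stab1.

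**Figure D2:**
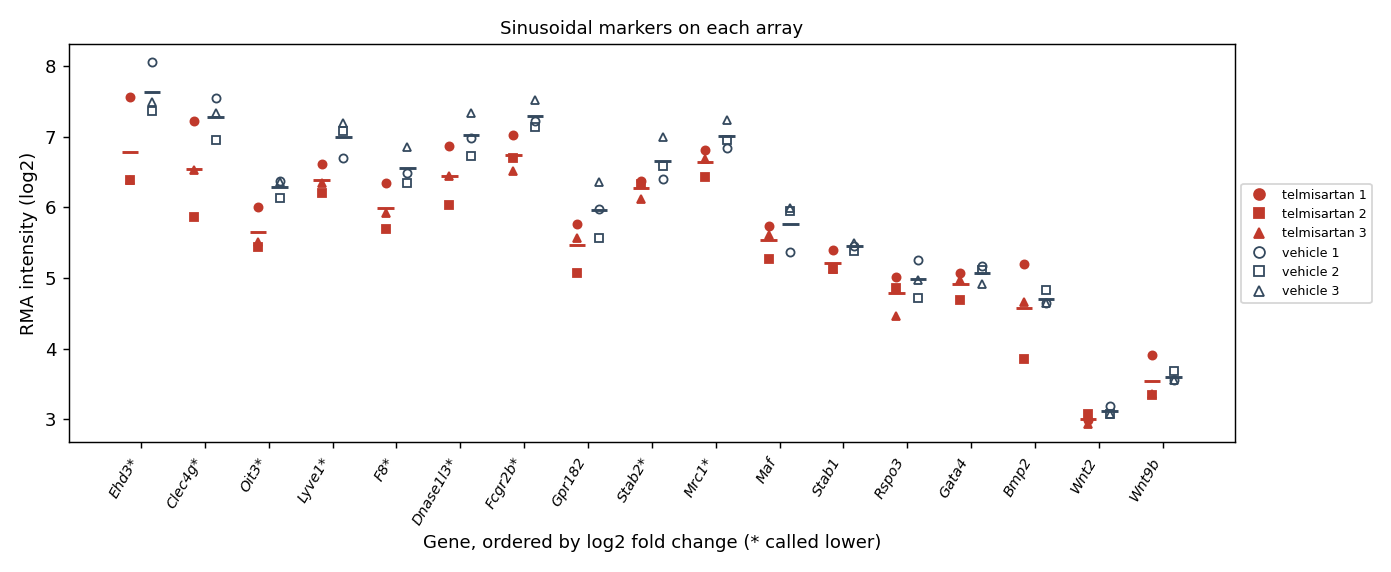
RMA intensity on the log2 scale (vertical axis) of 17 sinusoidal markers on each of 3 telmisartan arrays (filled) and 3 vehicle arrays (open), ordered from the most negative log2 fold change, with bars at the group means. Telmisartan 1 (filled circle) was the highest telmisartan array for 16 of the 17 genes, and the 9 genes with an asterisk were called lower.

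Of the other sinusoidal proteins, 4 of the 5 genes measured were lower. Ehd3, an ATPase of endocytic membrane traffic, had the most negative log2 fold change of the 40 genes, at -0.85 (SE 0.32, limma p of 0.0277 before adjustment). It was at 7.56, 6.39 and 6.39 with telmisartan, against 8.05, 7.36 and 7.49 with vehicle, so that telmisartan 1 lay above vehicle 2 and vehicle 3 while the other telmisartan arrays lay well below all vehicle arrays. This call was lost without telmisartan 2, telmisartan 3 or vehicle 1 (p up to 0.114). Oit3, a secreted protein with a zona pellucida domain, had the smallest p of the 40 genes. It was at 6.01, 5.44 and 5.51 with telmisartan, against 6.37, 6.13 and 6.35 with vehicle, without overlap of the groups. Its log2 fold change was -0.63 (SE 0.16, limma p of 0.00439 before adjustment).

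F8, coagulation factor VIII, which in mice is made mainly by endothelial cells, was at 6.35, 5.70 and 5.92 with telmisartan, against 6.48, 6.35 and 6.85 with vehicle. The groups did not overlap but telmisartan 1 and vehicle 2 were 0.0005 apart, and the log2 fold change was -0.57 (SE 0.19). Dnase1l3, a secreted nuclease that degrades chromatin in blood, was at 6.87, 6.03 and 6.44 with telmisartan, against 6.99, 6.73 and 7.34 with vehicle, a log2 fold change of -0.57 (SE 0.23). Telmisartan 1 lay above vehicle 2 for this gene. The call of F8 was lost without telmisartan 2, telmisartan 3 or vehicle 3 (p up to 0.0688), and that of Dnase1l3 without telmisartan 2 or 3 or vehicle 1 or 3 (p up to 0.134). Gpr182, an endothelial receptor that takes up chemokines, was at 5.77, 5.07 and 5.57 with telmisartan, against 5.98, 5.56 and 6.35 with vehicle, with overlapping groups. Its log2 fold change of -0.50 (SE 0.23, limma p of 0.0637 before adjustment) was not called, except without telmisartan 1 or vehicle 2 (p down to 0.0173).

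None of the 4 angiocrine ligands was called lower or higher, at a limma p before adjustment of 0.289 or more. These ligands are Wnt2, Wnt9b and Rspo3, which maintain the gene program of hepatocytes around the central vein, and Bmp2, which drives hepcidin expression in hepatocytes. Rspo3 was at 5.01, 4.87 and 4.47 with telmisartan, against 5.26, 4.72 and 4.97 with vehicle, a log2 fold change of -0.20 with a 95% interval of -0.61 to 0.22. Bmp2 was at 5.20, 3.85 and 4.66 with telmisartan, against 4.65, 4.82 and 4.64 with vehicle. The telmisartan arrays of Bmp2 lay on both sides of the vehicle arrays, the 95% interval of -0.80 to 0.52 was the widest of the 4, and the difference turned to 0.22 without telmisartan 2. Wnt2 was at 2.99, 3.08 and 2.93 with telmisartan, against 3.19, 3.08 and 3.08 with vehicle, a difference of -0.11 with a 95% interval of -0.35 to 0.12. Wnt9b averaged 3.54 ± 0.32 with telmisartan and 3.60 ± 0.07 with vehicle (SD, n = 3 each), a difference of -0.06 with a 95% interval of -0.43 to 0.31. The 4 intervals include 0, and those of Bmp2, Rspo3 and Wnt9b also include -0.37, the log2 fold change of Mrc1. Wnt2 lay under 3.26, the median level over all genes, and Wnt9b averaged not far above it. A fall of either gene could be missed at such levels, also where the interval is narrow.

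None of the pathway lists used here holds a gene of the endothelial list itself. Of 24 receptors, regulators and hepatocyte targets of Wnt and R-spondin signaling, 2 were higher and 0 lower, with a median of 0.02. Over all genes, 3.09% were higher and 3.5% lower. The higher genes were Lect2, a secreted protein of hepatocytes, with a log2 fold change of 0.50, and Fzd8, a Wnt receptor, with 0.63. Lect2 was at 6.82, 6.94 and 7.51 with telmisartan, against 6.84, 6.50 and 6.43 with vehicle, with overlapping groups. Fzd8 was at 3.05, 3.32 and 4.27 with telmisartan, against 3.01, 2.81 and 2.94 with vehicle, and telmisartan 3 lay well above the other arrays. The methods' t-test called neither gene. Glul, the glutamine synthetase of cells around the central vein, had -0.11 (limma p of 0.432 before adjustment), and Axin2, a general target of the pathway, had -0.13 (limma p of 0.430 before adjustment). Of 22 genes of bone morphogenetic protein and endoglin signaling, 1 was higher and 1 was lower, with a median of -0.04. These counts are near the shares over all genes. Atoh8, a transcription factor that activates hepcidin, was higher by 0.37, and Bmpr2, a type II receptor, had -0.31.

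The transcription factors Gata4, which specifies sinusoidal identity in mice, and Maf were not called. Gata4 averaged 4.91 ± 0.20 with telmisartan and 5.06 ± 0.13 with vehicle (SD, n = 3 each), a log2 fold change of -0.15 (SE 0.13). Maf was at 5.73, 5.27 and 5.61 with telmisartan, against 5.37, 5.95 and 5.99 with vehicle, with overlapping groups and a log2 fold change of -0.24 (SE 0.19). Its dimmer probe set gave -0.63, and with the mean of both probe sets Maf was called lower. It was also called on the brightest probe set without vehicle 1 (p of 0.0261).

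Junction and surface proteins were lower in 2 of 6 genes, with all 6 below 0. Cdh5, the VE-cadherin of endothelial junctions, was at 7.00, 6.66 and 6.53 with telmisartan, against 7.05, 7.01 and 7.40 with vehicle, a log2 fold change of -0.42 (SE 0.16, limma p of 0.0286 before adjustment). The groups were apart, with a margin of 0.008 between telmisartan 1 and vehicle 2. Pecam1, the adhesion molecule CD31, was at 5.52, 5.17 and 5.16 with telmisartan, against 5.40, 5.82 and 6.02 with vehicle, a log2 fold change of -0.46 (SE 0.18, limma p of 0.0296 before adjustment). Telmisartan 1 lay above vehicle 1 for Pecam1. The call of Cdh5 was lost without telmisartan 2, telmisartan 3 or vehicle 3 (p up to 0.106), and that of Pecam1 also without vehicle 2 (p up to 0.110).

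Emcn, the sialoprotein endomucin, was at 3.66, 3.68 and 3.69 with telmisartan, against 3.98, 3.78 and 3.93 with vehicle. Its groups did not overlap, but its log2 fold change of -0.23 (SE 0.10, limma p of 0.0572 before adjustment) was short of 1.2-fold, and it was called without vehicle 2 (p of 0.0406). Esam, an adhesion molecule of tight junctions, averaged 3.58 ± 0.15 with telmisartan and 3.81 ± 0.08 with vehicle (SD, n = 3 each), with a log2 fold change of -0.23 (SE 0.11), and was called without telmisartan 3 (p of 0.0303). Cldn5, a claudin of tight junctions, averaged 2.94 ± 0.09 with telmisartan and 2.99 ± 0.11 with vehicle (SD, n = 3 each), and the 95% interval of the difference was -0.29 to 0.21. Emcn, Esam, Cldn5 and the next gene, Cd34, all lay under a level of 4, and the median over all genes was 3.26. Cd34, the sialomucin used as a sign of capillarization, was at 3.12, 3.09 and 3.43 with telmisartan, against 3.15, 3.31 and 3.71 with vehicle. The groups overlapped, and the difference of -0.17 had a 95% interval of -0.55 to 0.21. Cd34 lay near the median over all genes, where a change could be missed.

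Among 7 receptors and secreted regulators of vessels, 2 were lower. Eng encodes endoglin, a co-receptor for BMP9 that is abundant in sinusoidal cells. It was at 7.18, 6.24 and 6.46 with telmisartan, against 7.40, 7.23 and 7.46 with vehicle. The groups did not overlap, with telmisartan 1 just below vehicle 2, and the log2 fold change was -0.74 (SE 0.22, limma p of 0.00999 before adjustment), the most negative of the pan-endothelial markers. Tie1, a receptor tyrosine kinase that modulates angiopoietin signaling, was at 4.35, 4.30 and 4.29 with telmisartan, against 4.87, 4.36 and 4.77 with vehicle, a log2 fold change of -0.36 (SE 0.14). Its groups did not overlap, but vehicle 2 lay close to the telmisartan arrays, and the call held only when vehicle 2 was the array left out (p up to 0.118 otherwise).

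Ptprb, the endothelial phosphatase VE-PTP, was at 6.92, 6.02 and 6.43 with telmisartan, against 6.93, 6.71 and 7.04 with vehicle. Telmisartan 1 and vehicle 1 were nearly equal, and the log2 fold change of -0.44 (SE 0.21, limma p of 0.0731 before adjustment) was called only without telmisartan 1 (p of 0.00537) among the fits that left out an array. Mmrn2, a matrix protein of endothelium, averaged 5.34 ± 0.18 with telmisartan and 5.59 ± 0.09 with vehicle (SD, n = 3 each). Its log2 fold change of -0.25 (SE 0.12) came with overlapping groups and was called without telmisartan 1 (p of 0.0230). Dll4, the endothelial Notch ligand, averaged 3.62 ± 0.08 with telmisartan and 3.78 ± 0.24 with vehicle (SD, n = 3 each), a log2 fold change of -0.16 (SE 0.14). Robo4, a guidance receptor that stabilizes vessels, was at 4.52, 4.49 and 4.49 with telmisartan, against 4.47, 4.48 and 4.62 with vehicle, with a 95% interval of -0.25 to 0.20 for the difference. Egfl7, a secreted vascular protein, averaged 5.21 ± 0.08 with telmisartan and 5.20 ± 0.15 with vehicle (SD, n = 3 each), with a 95% interval of -0.26 to 0.27. For Robo4 and Egfl7 the intervals did not reach -0.37, the log2 fold change of Mrc1. Of 15 other genes of Notch signaling, 0 were called lower or higher by limma, at the thresholds or at a p under 0.05 before adjustment, and 0 by the methods' t-test.

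**Figure D3:**
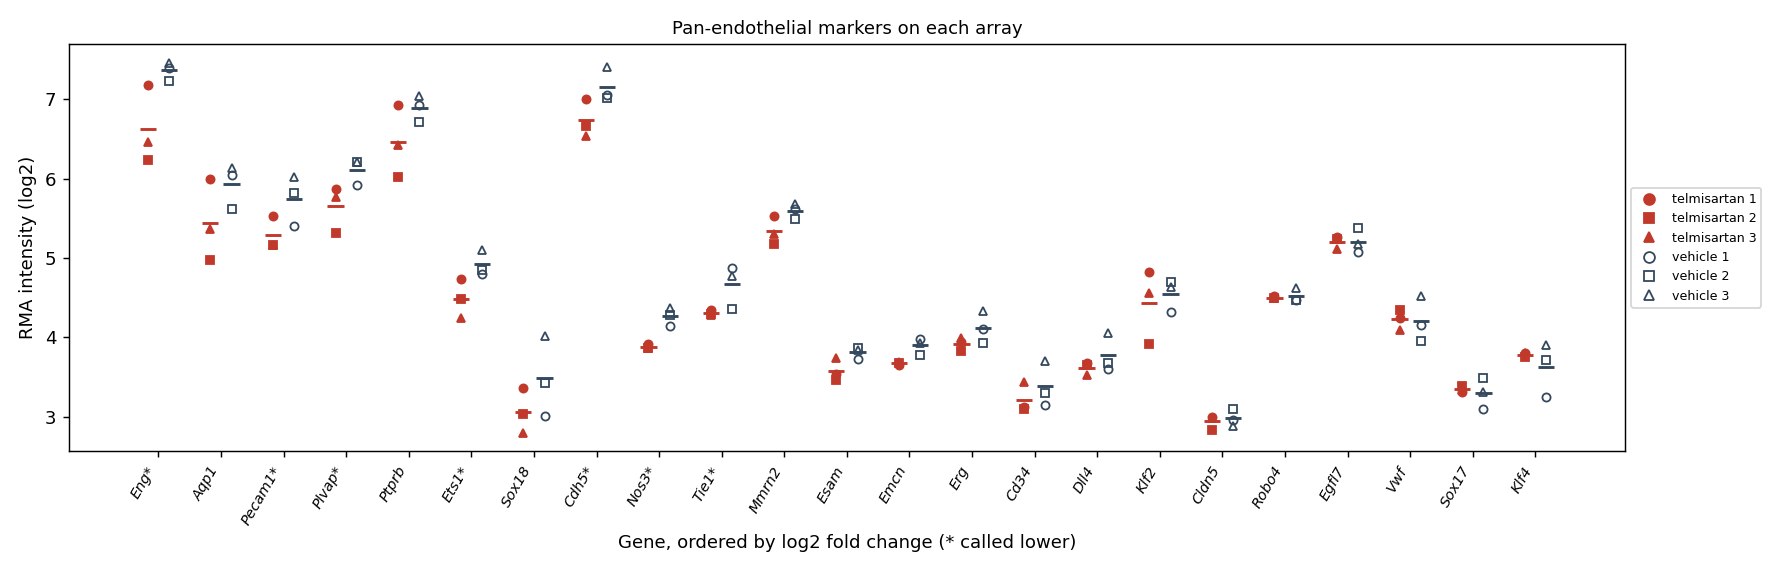
RMA intensity on the log2 scale (vertical axis) of 23 pan-endothelial markers on each of 3 telmisartan arrays (filled) and 3 vehicle arrays (open), ordered from the most negative log2 fold change, with bars at the group means. The 7 genes with an asterisk were called lower, and Egfl7, Vwf, Sox17 and Klf4 at the right had log2 fold changes of 0 or above.

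Of the 6 transcription factors, only Ets1 was called lower. Ets1, an ETS family factor of endothelial cells and lymphocytes, was at 4.74, 4.48 and 4.25 with telmisartan, against 4.80, 4.85 and 5.10 with vehicle, a log2 fold change of -0.43 (SE 0.15, limma p of 0.0195 before adjustment). All telmisartan arrays lay below the vehicle arrays, and the call was lost without telmisartan 3 or vehicle 3 (p up to 0.0736). Erg, the ETS factor that keeps endothelial identity, averaged 3.92 ± 0.08 with telmisartan and 4.12 ± 0.21 with vehicle (SD, n = 3 each), with overlapping groups and a log2 fold change of -0.21 (SE 0.13). Klf2, which blood flow induces, was at 4.82, 3.92 and 4.56 with telmisartan, against 4.32, 4.70 and 4.63 with vehicle, and its difference of -0.12 (95% interval -0.63 to 0.39) turned to 0.14 without telmisartan 2. Klf4, also induced by flow, averaged 3.78 ± 0.03 with telmisartan and 3.62 ± 0.34 with vehicle (SD, n = 3 each), a difference of 0.16 that turned to -0.03 without vehicle 1. Neither of these flow-induced factors was called. Sox17, an arterial factor, averaged 3.35 ± 0.04 with telmisartan and 3.30 ± 0.19 with vehicle (SD, n = 3 each). Sox18, a factor of lymphatic and vascular development, averaged 3.07 ± 0.28 with telmisartan and 3.49 ± 0.50 with vehicle (SD, n = 3 each), a log2 fold change of -0.42 (SE 0.25) that was called without vehicle 1 (p of 0.0206).

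The RefSeq promoters (GRCm38.p6, windows of 1 length around the annotated start of each gene) were searched for short motifs of factor families on this list. Promoters were matched by symbol for 21 of the 41 genes, as 25 sequences, and 8 of these genes were among the 16 lower ones. On either strand, the ETS motif, searched as CAGGAAG or CCGGAAG, was in 9 of the 25 sequences, or 36.0%, against 20.9% of all 32851 promoters. The KLF motif CCACCC was in 10 sequences, or 40.0%, against 31.5% of all promoters. The GATA motif AGATAA was in 1 and the SOX motif ACAATG in 2 of the 25, against 11.2% and 12.6% of all promoters. Counted by gene, 8 of the 21 genes with a promoter held the ETS motif and 10 the KLF motif. Of the 8 lower genes with a promoter, 2 held the ETS motif and 4 the KLF motif, so most genes with either motif were not called. These counts are a description, with no test, and a match is not a binding site. The lower genes that held the ETS motif and 2 of those that held the KLF motif are shown here, 5′ to 3′ along the gene, with matches to the ETS and KLF motifs in capitals. The Ehd3 promoter lies at chr17:73804591-73804890 (plus strand), Mrc1 at chr2:14229164-14229463 (plus), Eng at chr2:32646345-32646644 (plus) and Tie1 at chr4:118489800-118490099 (minus).
Ehd3: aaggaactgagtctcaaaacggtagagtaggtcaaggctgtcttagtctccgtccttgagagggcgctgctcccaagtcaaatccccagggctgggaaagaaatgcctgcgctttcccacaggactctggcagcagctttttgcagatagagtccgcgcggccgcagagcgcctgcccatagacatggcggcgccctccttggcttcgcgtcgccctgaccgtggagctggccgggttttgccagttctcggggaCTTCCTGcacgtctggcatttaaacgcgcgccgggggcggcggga
Mrc1: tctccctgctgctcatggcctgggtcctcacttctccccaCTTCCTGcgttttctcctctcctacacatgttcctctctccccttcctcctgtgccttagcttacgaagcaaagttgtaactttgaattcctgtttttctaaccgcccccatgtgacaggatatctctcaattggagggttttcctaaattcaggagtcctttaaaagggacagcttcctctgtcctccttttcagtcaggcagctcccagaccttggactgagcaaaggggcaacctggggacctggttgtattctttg
Eng: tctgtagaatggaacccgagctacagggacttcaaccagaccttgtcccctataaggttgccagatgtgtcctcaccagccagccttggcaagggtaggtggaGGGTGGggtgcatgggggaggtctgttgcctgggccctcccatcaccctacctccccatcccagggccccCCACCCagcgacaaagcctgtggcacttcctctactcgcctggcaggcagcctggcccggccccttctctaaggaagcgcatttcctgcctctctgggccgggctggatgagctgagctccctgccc
Tie1: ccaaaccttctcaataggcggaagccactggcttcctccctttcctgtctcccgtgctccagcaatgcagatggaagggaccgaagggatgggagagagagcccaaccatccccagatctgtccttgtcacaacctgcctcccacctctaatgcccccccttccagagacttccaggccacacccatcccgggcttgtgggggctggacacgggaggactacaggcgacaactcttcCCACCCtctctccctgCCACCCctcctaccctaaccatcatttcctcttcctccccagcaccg
Ehd3 and Mrc1 each held 1 ETS match, and Eng and Tie1 each held 2 KLF matches. No match of any of the 4 motif families overlapped another in these sequences. The Ets1 RNA was lower and the RNA levels of Klf2 and Klf4 were not called, as given above. Whether the level of any of these factors bears on the genes shown was not tested.

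The remaining 4 markers belong to particular vessel types or functions, and 2 of them were lower. Nos3, the endothelial nitric oxide synthase, was at 3.91, 3.87 and 3.86 with telmisartan, against 4.14, 4.28 and 4.37 with vehicle. The groups did not overlap and the arrays within each group lay close together, for a log2 fold change of -0.38 (SE 0.10, limma p of 0.00605 before adjustment). Plvap, the protein of the diaphragms that span endothelial pores, was at 5.86, 5.31 and 5.77 with telmisartan, against 5.92, 6.20 and 6.21 with vehicle, a log2 fold change of -0.46 (SE 0.16). Its groups did not overlap, and the call was lost without telmisartan 2, vehicle 2 or vehicle 3 (p up to 0.0699). Aqp1, a water channel of endothelium and bile ducts, was at 6.00, 4.97 and 5.36 with telmisartan, against 6.04, 5.62 and 6.13 with vehicle. The groups overlapped, and its log2 fold change of -0.49 (SE 0.25, limma p of 0.0863 before adjustment) was called without telmisartan 1 (p of 0.00609). Vwf, the von Willebrand factor of larger vessels, was at 4.25, 4.34 and 4.09 with telmisartan, against 4.16, 3.95 and 4.52 with vehicle, a difference of 0.02 with a 95% interval of -0.34 to 0.37.

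Genes linked to flow and the Klf2 response were lower in 4 of 15, with a median of -0.20 and 0 higher, against 3.5% of all genes lower and 3.09% higher. The list was not divided into genes that Klf2 raises and genes that it lowers, and 13 of the 15 lay below 0 and 2 above. Ptgds had 0.25 (limma p of 0.0354 before adjustment), with all telmisartan arrays above the vehicle arrays, but was short of 1.2-fold. Thbd had -0.02. Nfe2l2, the transcription factor NRF2, which most liver cells use, was at 6.91, 6.92 and 6.91 with telmisartan, against 7.25, 7.35 and 7.25 with vehicle, a log2 fold change of -0.37 (SE 0.10, limma p of 0.00454 before adjustment). The other lower genes were Mef2d, a factor upstream of Klf2, with -0.39, Procr, the endothelial protein C receptor, with -0.37, and Edn1, the vasoconstrictor endothelin-1, with -0.27. Procr had overlapping groups. Edn1 averaged 2.49 with telmisartan and 2.76 with vehicle, under 3.26, the median level over all genes, and its fold was 1.205. Of the 4 lower genes, the methods' t-test called only Nfe2l2.

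The list of further endothelial genes held 44 measured genes, of which 6 were lower and 0 higher, with a median of -0.14 and 35 below 0. Over all genes, 3.5% were lower, 3.09% were higher and 50.2% lay below 0. Calcrl, the receptor for adrenomedullin and calcitonin gene-related peptide, was at 5.46, 4.79 and 5.21 with telmisartan, against 6.00, 5.77 and 5.85 with vehicle, a log2 fold change of -0.72 (SE 0.17, limma p of 0.00265 before adjustment). Flt4, a VEGF receptor that sinusoidal and lymphatic endothelium share, had -0.45. The ETS factor Fli1 had -0.36, and Adgrl4, an adhesion receptor of angiogenic endothelium, had -0.74. Of these 4 genes, Calcrl, Flt4 and Fli1 had groups that did not overlap, whereas Adgrl4 had groups that did. The other lower genes were Procr, which is on both this list and the flow list, and Kdr, the main VEGF receptor, with -0.52.

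Markers of other liver cells on the same arrays gave a partly different pattern. The counts below stand against 3.5% of all genes lower and 3.09% higher. Of 16 Kupffer cell markers, 5 were lower and 0 higher, with a median of -0.26, and the largest fall was that of Marco, a scavenger receptor of macrophages, at -1.35. Their summed intensity was 1304 to 1478 with telmisartan and 1389 to 2026 with vehicle. Csf1r, the receptor that macrophages need to survive, had -0.35, Folr2, a folate receptor, had -0.32, Vsig4, a complement receptor, had -0.28, and the iron exporter Slc40a1 had -0.30. The Kupffer cell markers averaged 6.13, 6.21 and 6.00 on the telmisartan arrays, against 6.14, 6.42 and 6.63 on the vehicle arrays. Vehicle 1 therefore lay among the telmisartan arrays for Kupffer cell markers, while its sinusoidal mean of 5.95 lay above all telmisartan arrays. The pan-endothelial mean of vehicle 1, at 4.66, also lay among the telmisartan arrays, level with telmisartan 1. Telmisartan 2 had the lowest sinusoidal mean but the highest Kupffer cell mean of the telmisartan arrays. Of 16 stellate cell markers, 3 were lower, with a median of -0.18 and means of 5.34, 4.96 and 5.22 with telmisartan, against 5.14, 5.52 and 5.50 with vehicle. Their summed intensity was 785 to 1040 with telmisartan and 968 to 1260 with vehicle. Telmisartan 2 had the lowest stellate cell mean as well. The lower stellate cell genes were Lrat, which stores retinol, with -0.56, and the matrix proteins Dcn with -0.43 and Lum with -0.54.

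Of 16 hepatocyte markers, Cyp2f2 was lower, at -0.32, the median was 0.00, and their means lay between 10.5 and 10.6 on all arrays. Their summed intensity was 39905 to 42782 with telmisartan and 41484 to 42080 with vehicle. The summed intensity of the 17 sinusoidal markers was 842 to 1299 with telmisartan and 1302 to 1604 with vehicle. Lymphocyte and cholangiocyte markers had 0 called by limma and by the methods' t-test, and 0 at a limma p under 0.05 before adjustment, with medians of -0.13 and -0.06. Neutrophil and smooth muscle markers likewise had 0 by these counts, with medians of -0.05 and -0.01. The array means were 2.71 to 2.88 for lymphocyte, 2.96 to 3.10 for cholangiocyte and 2.25 to 2.60 for neutrophil markers. These lie under 3.26, the median level over all genes, where a fall could be missed. Of 7 platelet markers, Itgb3 and Ppbp were lower, at -0.29 and -0.53, and of 4 erythroid markers, Hemgn was higher, at 0.41. Ppbp averaged 2.84 with telmisartan and 3.37 with vehicle, and Hemgn 2.50 and 2.10, so both levels were low as well. The part of these cell types in the lower endothelial levels, including those of Fcgr2b, Mrc1, Pecam1 and Ets1, which leukocytes also express, was not tested.

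**Figure D4:**
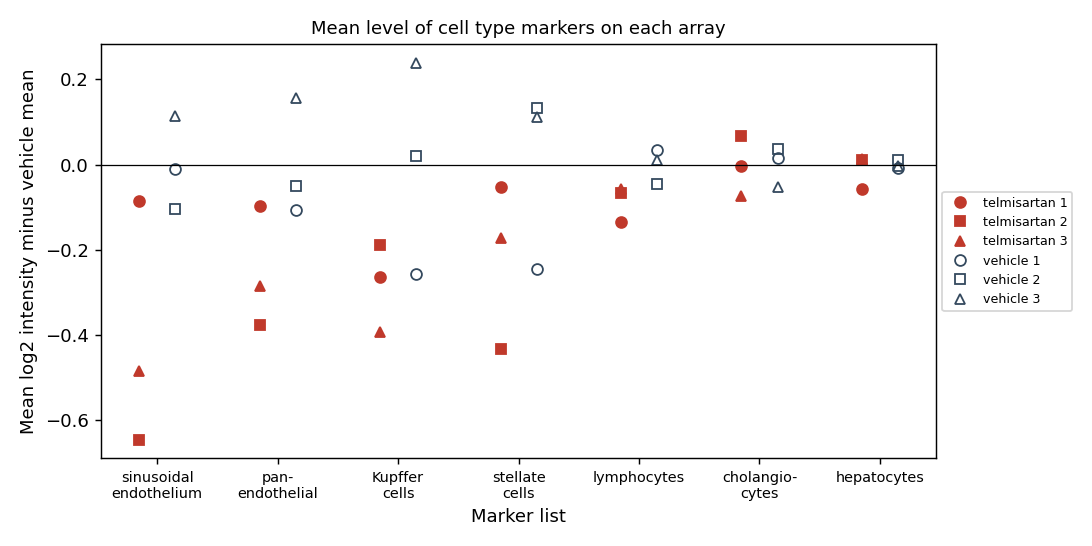
Mean log2 intensity of each marker list on each array minus the mean of the 3 vehicle arrays (vertical axis), with telmisartan arrays filled and vehicle arrays open. Telmisartan 2 and telmisartan 3 lay at -0.65 and -0.48 for the sinusoidal list and telmisartan 1 at -0.09, while the hepatocyte list stayed between -0.06 and 0.01 on all arrays.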

How the data were processed

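Liver RNA of 3 telmisartan-treated and 3 vehicle-treated mice was analysed, out of 7 mice dosed per group. The authors used the robust multi-array average (RMA) method and deposited linear intensity values of 31873 probe sets, kept for signal in every sample. The sources used here give neither the version of the RMA program nor the rule for that selection. Each intensity was replaced by its log2 value, with nothing added. The platform annotation paired 23094 probe sets with 1 symbol and 1770 with several, and did not list 7009. Cd34, Egfl7, Dll4 and Ets1 each had a further probe set with several symbols, which was not used.

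The comparison used limma 3.58.1 under R 4.3.3 (2-sided, 22087 genes, prior degrees of freedom 4.38), with the methods' t-test as an alternative. The count of arrays limits the precision. The labels do not say whether the mice shared litters or cages. The p-values set each difference against the spread between these mice, which limma moderates with the spread over all genes. The fit was tested on simulated data. The genes and lists were chosen with earlier results of these data known. All 41 genes are named, with the value on each array for those called and for the brightest gene of each role that was not called. In other lists up to 4 called genes are named by smallest p. Array values of Bmp2, Wnt2, Robo4, Cd34, Vwf, Lect2 and Fzd8, and the genes Glul, Axin2, Kdr, Slc40a1, Ptgds and Thbd, were added after their values were seen.

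Alternatives were another test, other thresholds, quantile normalization, cyclic loess, a filter on dim genes, the mean of all probe sets, an intensity trend, array weights, a replicate block and leaving out each array.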

Additional observations from a re-analysis of the deposited data

How the results depend on the processing

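The number of lower genes kept within 1.5 times of 16 under an intensity trend, quantile normalization, cyclic loess, a filter on genes with a mean level of at least 4, the mean of all probe sets, array weights, no fold threshold and the replicate block. In these fits, apart from the filter, 3.45% to 4.22% of all genes were lower. Calls were lost for Stab2, Clec4g and Tie1 under quantile normalization, for Stab2 under cyclic loess and the block, and for Clec4g, Dnase1l3, Ehd3 and Tie1 under array weights. The number was 4 with the methods' t-test (3 sinusoidal and 1 pan-endothelial), 5 at a 1.5-fold threshold (4 sinusoidal and 1 pan-endothelial, against 0.462% of all genes) and 0 at an adjusted p under 0.05 (0 and 0). Leaving out 1 array gave 6 to 19 lower genes of the 40, 3 to 10 of the sinusoidal and 2 to 9 of the pan-endothelial markers, and 0 higher in each of these fits. The filter on dim genes kept 30 of the 40 genes, and 16 of these were lower. Over all 8518 genes kept by the filter, 5.47% were lower and the median was -0.027. With this filter the medians were -0.50 for the sinusoidal and -0.38 for the pan-endothelial markers, and their difference was -0.11. Without 1 array, the sinusoidal median ranged between -0.49 and -0.25, the pan-endothelial median between -0.31 and -0.18, and their difference between -0.23 and -0.044.

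The replicate numbers were not used as pairs, since same-numbered arrays deviated together with correlations of 0.04, -0.02 and 0.04. With the replicate block 18 genes were lower (9 sinusoidal and 9 pan-endothelial), against 3.46% of all genes. Of the 18, 15 were among the 16, with Stab2 lost and Gpr182, Ptprb and Aqp1 gained. The medians of -0.38 and -0.23 and their difference of -0.15 do not change with the block, by its construction.

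Some genes that were not called changed sign when 1 array was left out. The ranges were -0.45 to 0.22 for Bmp2, -0.24 to 0.034 for Wnt9b, -0.093 to 0.016 for Cldn5, -0.048 to 0.025 for Robo4, -0.064 to 0.086 for Egfl7, -0.056 to 0.14 for Sox17, -0.31 to 0.14 for Klf2, -0.030 to 0.30 for Klf4 and -0.11 to 0.17 for Vwf. With array weights Egfl7 gave -0.054 and Sox17 -0.027. The cause was not tested.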
